A study of Mus musculus with 8 samples.

Results

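Glycolysis breaks glucose down to pyruvate, which is either reduced to lactate and exported or oxidised in mitochondria. In T cells it is raised by activation, largely through the kinase mTOR, and conventional effector cells lean on it more than resting regulatory T cells (Treg) do. Hif1a encodes the oxygen-regulated subunit of hypoxia-inducible factor 1 (HIF-1), a transcription factor that activates many glycolytic genes and that in mice favours Th17 over Treg differentiation. Its protein is controlled mainly after translation, by prolyl hydroxylation and destruction, so transcript levels are only one layer of its regulation.

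From that pathway 9 genes were chosen by symbol from the platform annotation: Hif1a, the glycolytic enzyme genes Hk1, Pfkl, Pfkm, Pfkp, Aldoc and Eno3, the lactate exporter gene Slc16a3 and the pyruvate dehydrogenase kinase gene Pdk2. They were read by 10 probe sets that the annotation assigns to 1 gene, out of 7358 such probe sets and 6986 genes. Hif1a had 2 of them and the other genes 1 each. Another 3 probe sets carry the name of one of the 9 genes together with another gene and were left out of the tests. The cells were CD4+CD25+ lymphocytes, a fraction the labels call Treg, sorted on day 9.5 post-coitus from para-aortic (uterus-draining) lymph nodes. Their RNA was read on Affymetrix Mouse Gene 2.0 ST arrays. One group was 4 arrays labelled IL10-/-, from mutant mice bred back through a C57BL/6 colony. These mice drank oxytetracycline at 2 mg/ml against colitis. The other group was 4 arrays labelled IL10+/+, from C57BL/6 mice of that colony, for which no antibiotic is stated, so genotype and antibiotic cannot be told apart. Balb/c males are named among the animals used. Every array held pooled RNA of 2 to 4 mice. All values below are log2 expression values as deposited, and differences are IL10-/- minus IL10+/+ on the log2 scale. In such bulk RNA, fewer cells of a type and less RNA per cell cannot be told apart.

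Il10, the disrupted gene, read 8.65 to 9.42 in the arrays labelled IL10-/- and 7.50 to 8.51 in those labelled IL10+/+. The difference was 1.06 (SE 0.22; limma, adjusted p = 0.405), the opposite of a lost transcript. Which part of the gene the mutation changed was not stated in the labels, so the probe set checks no label, and every direction below rests on the labels. Of the Treg markers, Ctla4 (10.88 to 11.36 in IL10-/-, 11.18 to 11.49 in IL10+/+) and Ikzf2 (11.19 to 11.49 in IL10-/-, 11.44 to 11.75 in IL10+/+) were both measured, and Foxp3, Il2ra and Cd4 were not analysed here. The arrays IL10-/- replicate 2 and IL10+/+ replicate 4 stood apart, with scores of 16.6 and 17.8 on the first principal component. IL10+/+ replicate 2 lay at the other end with -13.3, and the remaining arrays lay at -5.58 to -2.72. Over all genes, which are no independent replicates, pairs of arrays had Pearson's r of 0.974 to 0.993.

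HIF-1 recognises a short core, ACGTG or GCGTG. The RefSeq promoters of Hif1a, of the lactate exporter gene and of the phosphofructokinase genes Pfkl and Pfkp are printed to show where that core lies, since HIF-1 is known to act on glycolytic promoters. Each runs from 250 bases before to 50 bases after an annotated start (GRCm38.p6), 5′ to 3′ on the gene's strand, with capitals at every match to the core on either strand. The windows are chr12:73907617-73907916 (plus strand) for Hif1a, chr11:120948817-120949116 (plus) for Slc16a3, chr10:78009758-78010057 (minus) for Pfkl and chr13:6648722-6649021 (minus) for Pfkp.
Hif1a: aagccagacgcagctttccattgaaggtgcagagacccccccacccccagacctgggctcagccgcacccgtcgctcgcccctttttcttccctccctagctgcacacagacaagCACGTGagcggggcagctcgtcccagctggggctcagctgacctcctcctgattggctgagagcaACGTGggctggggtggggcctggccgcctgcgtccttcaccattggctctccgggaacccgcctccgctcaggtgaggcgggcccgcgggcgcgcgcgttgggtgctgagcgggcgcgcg
Slc16a3: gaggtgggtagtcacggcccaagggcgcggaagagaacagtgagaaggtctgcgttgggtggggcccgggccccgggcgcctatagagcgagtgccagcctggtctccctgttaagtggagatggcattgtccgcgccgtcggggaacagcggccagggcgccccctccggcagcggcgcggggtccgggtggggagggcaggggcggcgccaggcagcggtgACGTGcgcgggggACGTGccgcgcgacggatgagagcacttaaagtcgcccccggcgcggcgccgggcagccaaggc
Pfkl: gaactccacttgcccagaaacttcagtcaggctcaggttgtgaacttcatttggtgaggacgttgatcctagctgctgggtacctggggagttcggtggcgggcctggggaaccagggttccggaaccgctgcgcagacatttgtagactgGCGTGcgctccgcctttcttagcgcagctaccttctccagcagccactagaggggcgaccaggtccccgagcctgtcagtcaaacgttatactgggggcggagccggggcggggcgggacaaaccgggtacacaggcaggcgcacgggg
Pfkp: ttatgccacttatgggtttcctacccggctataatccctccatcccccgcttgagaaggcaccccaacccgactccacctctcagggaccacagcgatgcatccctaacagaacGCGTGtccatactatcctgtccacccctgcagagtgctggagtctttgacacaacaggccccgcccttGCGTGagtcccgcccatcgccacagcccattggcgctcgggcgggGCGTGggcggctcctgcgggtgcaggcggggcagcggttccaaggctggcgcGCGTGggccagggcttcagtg
Slc16a3 has 2 matches, both ACGTG. Pfkp has 4 and Pfkl 1, all of them GCGTG. Hif1a has 3 matches, 2 of which overlap in a palindromic CACGTG, which holds the core on both strands. Of the 15 promoters annotated for the 9 genes, 12 held at least 1 match and 7 held ACGTG on either strand. Of all 32851 promoters of the same length, 43.8% held a match and 19.6% held ACGTG. Several genes have more than 1 annotated start, so the 15 windows are not independent. A match is a description of these letters and not a binding site.

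None of the 9 genes differed between the genotypes past the test. By limma with Benjamini-Hochberg adjustment over 6986 genes, 0 of 9 passed the threshold of 0.05, against 0.0286% of all genes (2 genes, Ctse and Efcab2). At an unadjusted p under 0.05 the count with all 8 arrays was also 0 of 9, against 4.78% of all genes. The groups overlapped for all 9 genes, whereas they did not overlap for 2.92% of all genes. A positive difference was seen in 4 genes (Pfkm, Hif1a, Aldoc and Hk1) and a negative one in 5 (Pdk2, Pfkp, Pfkl, Slc16a3 and Eno3), with a median of -0.0047, beside 0.0025 over all genes. Differences ran from -0.18 for Pdk2 to 0.26 for Pfkm. The median size, disregarding sign, was 0.13 for the 9 genes and 0.087 for all genes.

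Each interval covers a gene taken alone and is not adjusted over the 6986 genes, unlike the threshold for a call. That threshold could miss larger changes: Il10 differed by 1.06 and did not pass (limma, adjusted p = 0.405). For 8 of the 9 genes the 95% interval of limma lay within 1.5-fold in either direction. For Pfkm it ran from -0.42 to 0.94, which is 0.750-fold to 1.92-fold. A p above the threshold does not show that the levels were the same.

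**Figure D1:**
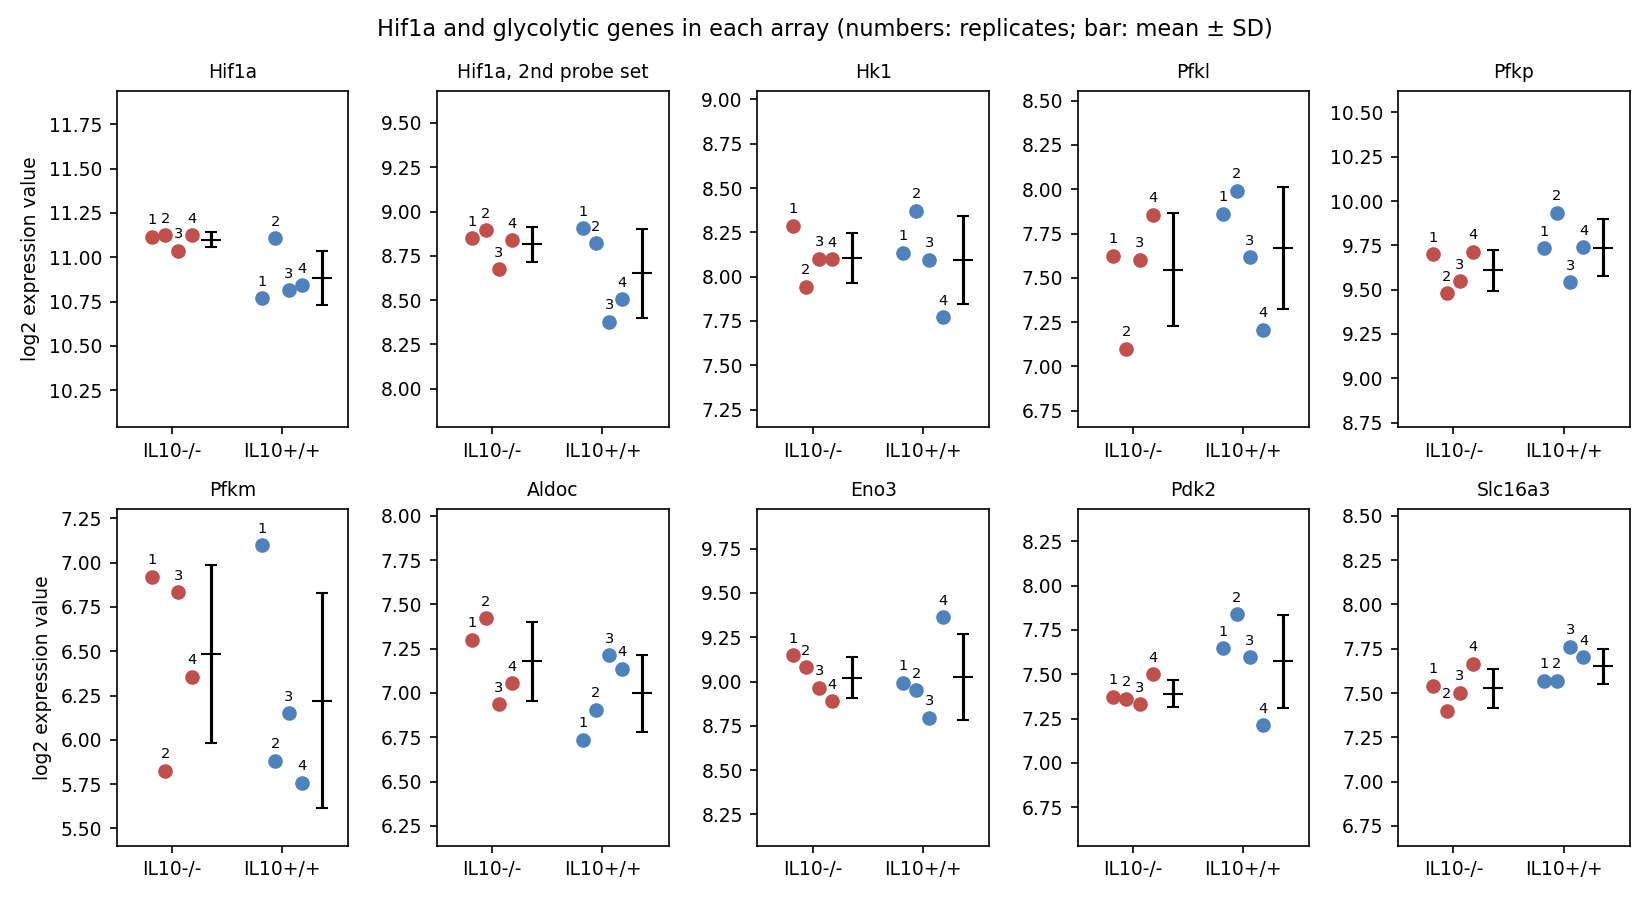
Log2 expression value (vertical axis, the same span of log2 units in every panel) of each probe set in the 4 arrays labelled IL10-/- (red, left) and the 4 labelled IL10+/+ (blue, right), with replicate numbers and the mean ± SD of each group (bars). Hif1a lay at 11.04 to 11.12 in the IL10-/- arrays and at 10.77 to 11.11 in the IL10+/+ arrays, and Pfkm spread most in both groups.

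Hif1a came nearest to a difference. Its leading probe set (17276328) read 11.12, 11.12, 11.04 and 11.12 in IL10-/- replicates 1 to 4, against 10.77, 11.11, 10.81 and 10.84 in IL10+/+ replicates 1 to 4. All 4 IL10-/- arrays lay above the IL10+/+ mean and 3 of them above every IL10+/+ array. The single overlap came from IL10+/+ replicate 2. IL10-/- arrays averaged 11.10 ± 0.04 and IL10+/+ arrays 10.88 ± 0.15 (SD, n = 4 each). The difference was 0.22 (SE 0.10, 95% interval -0.01 to 0.44) or 1.16-fold. It did not pass limma's test (adjusted p = 0.999, unadjusted p = 0.0598), and an exact permutation test (two-sided, 70 assignments) gave p = 0.0571, where 0.0286 is the smallest possible. With 1 array left out the difference ran from 0.18, without IL10+/+ replicate 1, to 0.29, without IL10+/+ replicate 2 (limma, adjusted p = 0.990 and 0.570).

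The second Hif1a probe set (17281911) showed a different order of arrays. It read 8.85, 8.89, 8.67 and 8.84 in the IL10-/- replicates and 8.90, 8.82, 8.38 and 8.50 in the IL10+/+ replicates. Here the lowest arrays were IL10+/+ replicates 3 and 4, while IL10+/+ replicate 1, the lowest array by the leading probe set, was the highest. The difference was 0.16 (SE 0.13, limma adjusted p = 0.999 over 7358 probe sets, of which 0.0272% passed; exact permutation p = 0.286). It was 0.07 without IL10+/+ replicate 3 and 0.25 without IL10+/+ replicate 1. Hif1a lies on the plus strand. Among the 20 named probe sets nearest in number to the leading one, 19 belong to genes of known strand, and all 19 lie on the plus strand. Around the second probe set 17 have a known strand and all 17 lie on the minus strand, so which strand of Hif1a it reads is uncertain. Another probe set, shared with the pseudogene S100a11-ps, averaged 7.86 ± 0.21 in IL10-/- and 7.71 ± 0.26 in IL10+/+ (SD, n = 4 each).

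By its leading probe set, Hif1a fell into separate levels. The upper level, 11.04 to 11.12, held 5 arrays, all 4 labelled IL10-/- and IL10+/+ replicate 2. The lower level, 10.77 to 10.84, held the other 3 IL10+/+ arrays. Because neither level holds enough arrays, no correlation between Hif1a and the enzyme genes is reported. The same limit holds for likeness to other genes, where r mainly says which genes separate the same 3 arrays from the other 5. With that limit, and as a description only, Pearson's r with Hif1a over the 8 arrays, among 5485 named genes with an SD of at least 0.1, was highest for Acaca (0.97), Elovl7 (0.96), Cd24a (0.93), Tspyl4 (0.93) and Pgap1 (0.92). It was lowest for Dnase1l3 (-0.94), Slc38a9 (-0.94) and Tns1 (-0.93). Of these genes, Elovl7, Dnase1l3 and Tns1 averaged below the 95th percentile of the olfactory and vomeronasal receptor probe sets (7.07), which serves as background below.

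Acaca encodes acetyl-CoA carboxylase, the committed enzyme of fatty acid synthesis. It read 7.92, 7.85, 7.65 and 7.95 in the IL10-/- replicates and 7.37, 7.78, 7.40 and 7.37 in the IL10+/+ replicates. Cd24a, which encodes a surface glycoprotein of B cells and immature lymphocytes, read 10.03, 11.12, 10.63 and 11.38 in IL10-/- and 8.51, 10.57, 8.86 and 9.10 in IL10+/+. These genes were chosen for their likeness to Hif1a, so a shared order of arrays is no separate result. Neither gene passed limma's test (differences of 0.36 and 1.53, adjusted p = 0.777 and 0.650).

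Hk1, which encodes hexokinase 1, the enzyme that traps glucose in the cell as glucose 6-phosphate, had overlapping groups with nearly equal means. It read 8.29, 7.94, 8.10 and 8.10 in the IL10-/- replicates and 8.14, 8.37, 8.10 and 7.77 in the IL10+/+ replicates. The lowest array of each group was one of the pair that stood apart. IL10-/- arrays averaged 8.11 ± 0.14 and IL10+/+ arrays 8.09 ± 0.25 (SD, n = 4 each). The difference was 0.01 (SE 0.14, 95% interval -0.29 to 0.31; limma, adjusted p = 0.999). Without both arrays that stood apart it was -0.04. A probe set shared with the antisense transcript Hk1os averaged 7.58 ± 0.10 in IL10-/- and 7.53 ± 0.19 in IL10+/+ (SD, n = 4 each). Its number is near that of P4ha1 on chromosome 10 and well before those of Hk1 and Pfkl, both minus-strand genes. It is therefore not taken as a second reading of Hk1.

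Phosphofructokinase performs the committed step of glycolysis as a tetramer of liver-type (Pfkl), platelet-type (Pfkp) and muscle-type (Pfkm) subunits. Pfkp varied little. It read 9.70, 9.48, 9.55 and 9.72 in IL10-/- and 9.73, 9.93, 9.54 and 9.74 in IL10+/+. All 4 IL10-/- arrays lay below the IL10+/+ mean, but only IL10-/- replicate 2 lay below every IL10+/+ array. The difference was -0.13 (SE 0.11; limma, adjusted p = 0.999; exact permutation p = 0.171). It was -0.06 without IL10+/+ replicate 2 and also with array weights, -0.08 without IL10-/- replicate 2 or without both arrays that stood apart, and -0.19 without IL10+/+ replicate 3.

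Pfkl read 7.62, 7.10, 7.60 and 7.86 in IL10-/- and 7.86, 7.99, 7.62 and 7.21 in IL10+/+. Its lowest value in each group belonged to an array that stood apart, and the other 6 arrays lay between 7.60 and 7.99. The difference was -0.12 (SE 0.19; limma, adjusted p = 0.999) in all 8 arrays and -0.13 without both of those arrays. It was 0.02 without IL10-/- replicate 2 alone and -0.28 without IL10+/+ replicate 4 alone. The part of those 2 arrays in the result was not tested. The pooled SD within groups was 0.33, above that of 89.4% of all genes.

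Pfkm was the most variable of the 9 genes, with a pooled SD within groups of 0.56, above that of 98.6% of all genes (median 0.18). It read 6.92, 5.83, 6.83 and 6.36 in IL10-/- and 7.10, 5.88, 6.15 and 5.76 in IL10+/+. High and low arrays occurred in both groups. The difference was 0.26 (SE 0.31; limma, adjusted p = 0.999), and it lay between 0.11, without IL10+/+ replicate 4, and 0.55, without IL10+/+ replicate 1. The probe set averaged 6.35, below the 95th percentile of 278 olfactory and vomeronasal receptor probe sets (7.07), which serve as a background since lymphocytes are not known to use those genes. The remaining 9 probe sets averaged above that percentile, Aldoc only just (7.09). Of all 6986 genes, 3446 did so too. The table gives no detection call, so a signal above this background is not proof of expression.

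**Figure D2:**
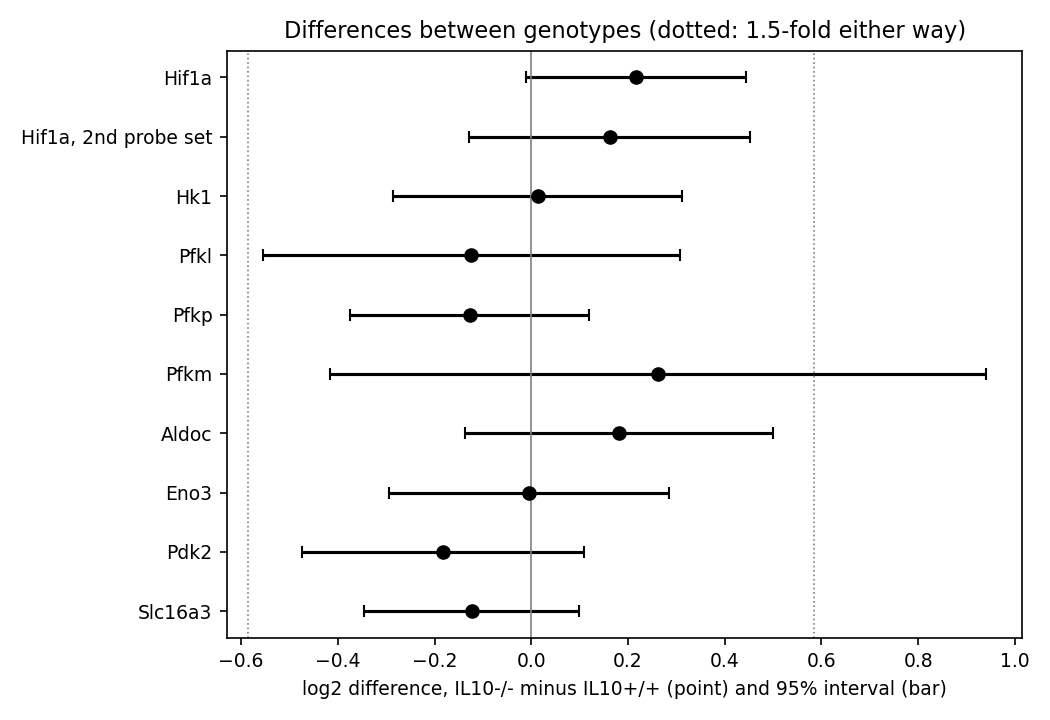
Log2 difference, IL10-/- minus IL10+/+ (horizontal axis), of each probe set with its 95% interval from limma. The dotted lines mark 1.5-fold in either direction, and only the interval of Pfkm, which ends at 0.94, crosses one of them.

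Aldoc and Eno3 are tissue-restricted forms of later enzymes. Aldolase C, encoded by Aldoc, is best known from brain and splits fructose 1,6-bisphosphate. It read 7.30, 7.42, 6.94 and 7.06 in IL10-/- and 6.74, 6.90, 7.21 and 7.14 in IL10+/+. IL10-/- replicates 1 and 2 lay above every IL10+/+ array and the other pair within their range. The difference was 0.18 (SE 0.14, 95% interval -0.14 to 0.50; limma, adjusted p = 0.999). It was 0.09 without IL10+/+ replicate 1 and 0.10 without IL10-/- replicate 2.

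Eno3, the muscle form of enolase, forms phosphoenolpyruvate. It read 9.15, 9.08, 8.97 and 8.89 in IL10-/- and 8.99, 8.95, 8.80 and 9.36 in IL10+/+. Its highest value, in IL10+/+ replicate 4, came from an array that stood apart and where Hk1 and Pfkm were at their lowest. The difference was -0.0047 (SE 0.13, 95% interval -0.29 to 0.28; limma, adjusted p = 0.999), and 0.11 without IL10+/+ replicate 4. Of 11 measured markers of skeletal muscle, 2 averaged above the receptor background, and of 7 markers of astrocytes and neurons 1 did. Neither list had a gene past the test, and their median differences were 0.04 and 0.02.

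Pdk2 encodes a kinase that switches off pyruvate dehydrogenase and so holds pyruvate back from oxidation. It read 7.37, 7.36, 7.33 and 7.50 in IL10-/- and 7.65, 7.84, 7.60 and 7.21 in IL10+/+. The 4 IL10-/- arrays were close together (SD 0.07), all below the IL10+/+ mean, and IL10+/+ replicates 1 to 3 lay above all of them. IL10+/+ replicate 4, which stood apart, lay below every other array. The difference was -0.18 (SE 0.13, 95% interval -0.47 to 0.11; limma, adjusted p = 0.999; exact permutation p = 0.257). Without IL10+/+ replicate 4 it was -0.30 (limma, adjusted p = 0.689), and without both arrays that stood apart -0.29 (adjusted p = 0.813). Without IL10+/+ replicate 2 it was -0.09. The part of those arrays in the result was not tested.

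Slc16a3 encodes the monocarboxylate transporter MCT4, which exports lactate from strongly glycolytic cells. It read 7.54, 7.40, 7.50 and 7.67 in IL10-/- and 7.57, 7.57, 7.76 and 7.70 in IL10+/+. IL10-/- replicates 1 to 3 lay below every IL10+/+ array and replicate 4 within their range. The difference was -0.12 (SE 0.10, 95% interval -0.35 to 0.10; limma, adjusted p = 0.999; exact permutation p = 0.143). It was -0.08 without IL10-/- replicate 2 and -0.06 without both arrays that stood apart. A probe set shared with the neighbouring gene Csnk1d averaged 9.32 ± 0.08 in IL10-/- and 9.26 ± 0.15 in IL10+/+ (SD, n = 4 each). Its difference had the opposite sign. Slc16a3 lies on the plus strand, but this shared probe set is numbered after that of Pdk2, a minus-strand gene of chromosome 11. By its number it stands with minus-strand genes, so it is not taken as a second reading of Slc16a3.

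**Figure D3:**
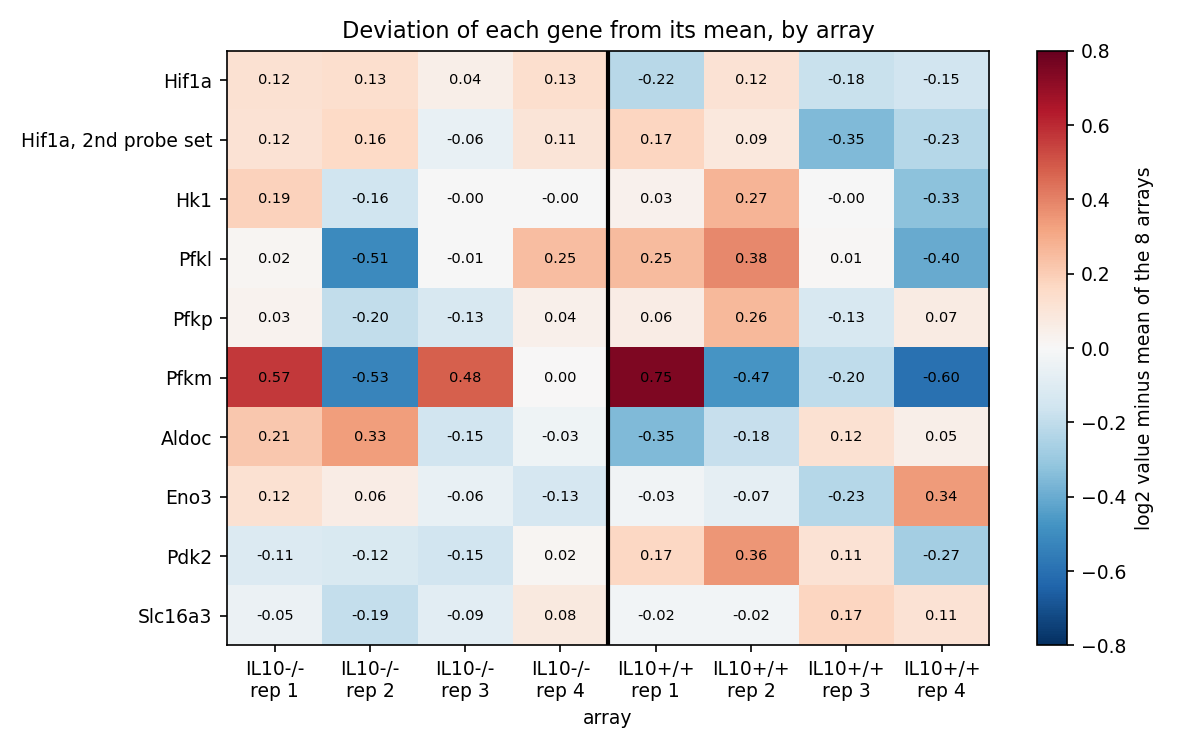
Log2 value of each probe set (rows) minus its mean over the 8 arrays, for each array (columns; IL10-/- left of the black line, IL10+/+ right). IL10-/- replicate 2 and IL10+/+ replicate 4 hold the lowest Pfkl values (-0.51 and -0.40), and the deviations of Pfkm reach 0.75 in IL10+/+ replicate 1 and -0.60 in IL10+/+ replicate 4.

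Of 40 further glycolysis genes, 6 were measured, and 0 passed limma's test or had an unadjusted p under 0.05. Their median difference was 0.06, with 4 positive and 2 negative. Gapdh, the glyceraldehyde 3-phosphate dehydrogenase gene, whose many processed pseudogenes make its signal uncertain, read 12.04 to 12.41 in IL10-/- and 11.92 to 12.40 in IL10+/+. Gapdh lies on chromosome 6, but its probe set is numbered between those of Pgam2 and Mdh1 on chromosome 11, so what that probe set reads is uncertain. Pfkfb2, which makes and removes the activator of phosphofructokinase, averaged 7.84 ± 0.09 in IL10-/- and 7.95 ± 0.06 in IL10+/+ (SD, n = 4 each), a difference of -0.12 (SE 0.09). Only these 2 genes averaged above the receptor background. The hexokinases Hk3 and Hkdc1, the muscle mutase Pgam2 and the glucose transporter Slc2a12 differed by 0.04, -0.03, 0.10 and 0.08. The main enzyme and transporter genes Hk2, Ldha, Pkm, Aldoa and Slc2a1 were not analysed here.

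Of 23 genes of pyruvate and lactate handling, 7 were measured and 0 passed the adjustment, with a median of 0.02. Emb encodes embigin, a membrane partner that helps monocarboxylate transporters reach the cell surface. It read 11.55 to 11.66 in IL10-/- and 11.25 to 11.52 in IL10+/+, without overlap, as did 2.92% of all genes. Its difference was 0.25 (SE 0.10; limma, unadjusted p = 0.0273, adjusted p = 0.884; exact permutation p = 0.0286, the smallest possible). Bsg, basigin, the partner of MCT4, differed by 0.02. The transporters Slc16a7 and Slc16a8, both below the receptor background, differed by -0.21 and 0.19. The pyruvate dehydrogenase genes Pdhb and Dld differed by 0.0040 and 0.19, and the mitochondrial pyruvate carrier gene Mpc1 by -0.15 (SE 0.44). Mpc1 lies on chromosome 17, but its probe set is numbered between those of Hsp90aa1 and Akt1 on chromosome 12. What that probe set reads is therefore uncertain.

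Genes around HIF-1 did not pass the test either. Of 27 partners and regulators of HIF, 8 were measured, 4 positive and 4 negative, with a median of 0.02. Hsp90aa1, a chaperone of the HIF-1 alpha protein, differed by 0.17 (SE 0.10). Eloc, elongin C of the complex that marks the hydroxylated protein for destruction, differed by 0.40 (SE 0.31) and ranged over 8.95 to 10.77 within IL10+/+ alone. Of 35 HIF targets outside glycolysis, 7 were measured, with a median of -0.03. The stress gene Ddit4, an inhibitor of mTOR, averaged 7.97 ± 0.42 in IL10-/- and 8.49 ± 0.46 in IL10+/+ (SD, n = 4 each; difference -0.52, SE 0.25). Lgals1, the gene of the lectin galectin-1, averaged 12.04 ± 0.28 in IL10-/- and 11.72 ± 0.24 in IL10+/+ (SD, n = 4 each; difference 0.32, SE 0.16). These 2 genes pointed in opposite directions, and 0 of the 15 genes of both lists had an unadjusted p under 0.05.

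Upstream, 15 of 40 genes of the mTOR, PI3K, AMPK and Myc pathways were measured, 4 positive and 11 negative, with a median of -0.04 and 0 past the test or at an unadjusted p under 0.05. Rptor, the mTORC1 scaffold, differed by -0.16 (SE 0.12) and Mycn, which lay below the receptor background, by 0.14 (SE 0.10). Of the list for the tricarboxylic acid cycle, which also holds cytosolic forms of its enzymes, 9 of 20 genes were measured. Their differences were positive in 4 and negative in 5, with a median of -0.0067. Idh1, a cytosolic isocitrate dehydrogenase, differed by -0.26 (SE 0.14) and Sucla2, a succinate-CoA ligase subunit, by 0.17 (SE 0.11). The pentose phosphate list of 12 had 1 measured gene, the epimerase gene Rpe, at 0.25 (SE 0.12; limma, adjusted p = 0.999). Over all 6986 genes, 3550 differences were positive and 3436 negative.

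**Figure D4:**
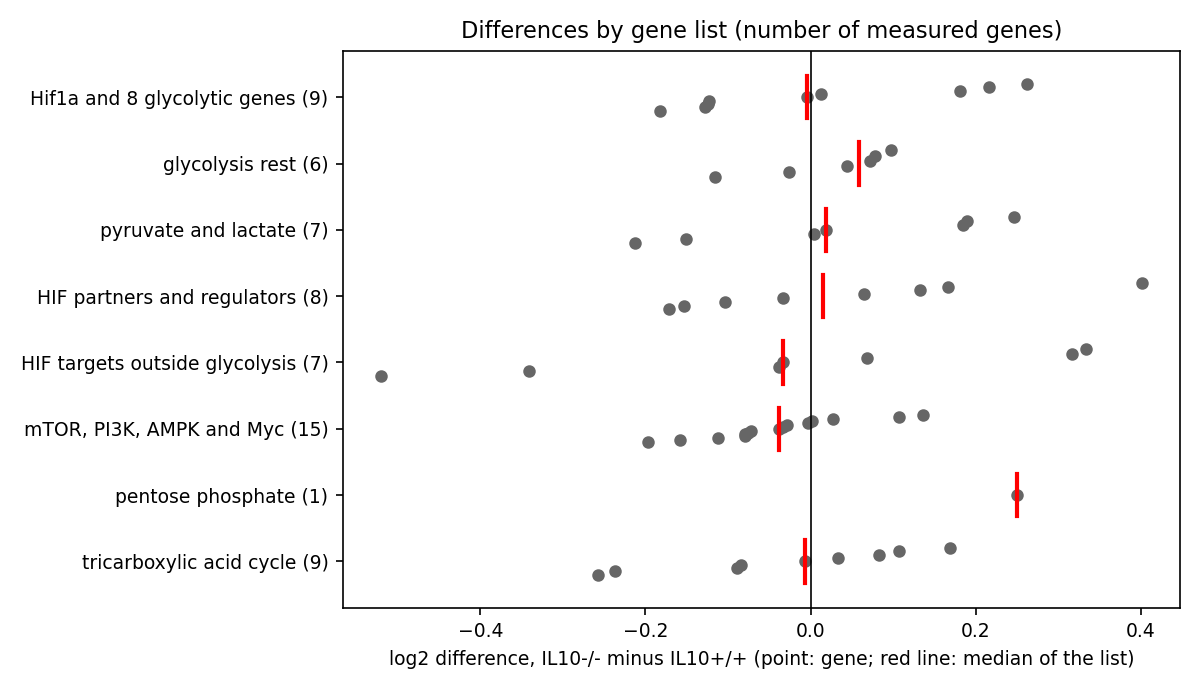
Log2 difference, IL10-/- minus IL10+/+ (horizontal axis), of every measured gene (points) in each pathway list (rows, with the number measured) and the median of the list (red line). The medians of all lists with more than 1 gene lie between -0.04 and 0.06, and Ddit4 (-0.52) and Eloc (0.40) are the outermost points.

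Marker lists give the make-up of the sorted fraction as far as it was measured. The 3 Treg markers (Ctla4, Ikzf2 and Ikzf4) and the 4 T cell markers all averaged above the receptor background, with median differences of -0.11 and -0.10. Of all 6986 genes 3446 lay above it. Of 6 B cell markers 3 lay above it, among them Cd79b at 8.72 ± 0.27 in IL10-/- and 8.45 ± 0.09 in IL10+/+ (SD, n = 4 each), and 5 of the 6 differences were positive (median 0.14). Vpreb3, another B cell gene, lay below the background and differed by 0.24. Of the B cell genes above it, Cd79b and Blk were positive and Fcmr was negative (-0.08). Of 7 markers of macrophages, monocytes and neutrophils 4 lay above the background. Their differences were positive in 3 and negative in 4 (median -0.04), from -0.42 for Lyz1, which lay below the background, to 0.15 for Lyz2. Above the background lay, of 2 red cell and platelet markers 1 (Slc4a1 at 0.10, Itga2b at 0.05), and of 5 stroma and endothelium markers 1 (median -0.10). In these lists 0 genes passed limma's test or had an unadjusted p under 0.05. Whether carried-over cells contribute to the enzyme signals was not tested.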

How the data were processed

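The authors hybridised pooled RNA, amplified with the Ovation PicoSL system, to Affymetrix Mouse Gene 2.0 ST arrays, per the labels' protocols. The deposited log2 values were made in Partek Genomics Suite by RMA background correction, Partek's correction for GC content and averaging over probes, per the series' design text. The base of the logarithm is inferred from the range of the values. Affymetrix Expression Console also appears in the submitters' processing notes. No source used here gives program versions or the genome build. The number of arrays limits the precision.

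The table held 16378 probe sets, of which the platform annotation names 7358 with 1 gene, 456 with several and 8564 without a gene. RefSeq GRCm38.p6 gave current symbols by Entrez identifier (7310 probe sets matched). Per gene the probe set of highest mean was kept, giving 6986 genes without a filter on signal, of which 99.6% of those with a known place are on chromosomes 1 and 10 to 15. Groups came from the sample titles. limma 3.58.1 (lmFit, eBayes) in R 4.3.3 compared 4 with 4 arrays, with Benjamini-Hochberg adjustment over all genes. A second fit covered the 7358 probe sets. The limma step was tested on simulated data. Exact permutation tests (two-sided, 70 assignments) were run on single genes in Python 3.11.15. Promoters came from RefSeq and were searched for literal matches.

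The 9 genes and all gene lists were chosen with earlier results of these data known. The rule for named genes took the 9 genes, measured genes of the glycolysis and pyruvate lists, the 2 genes of smallest p in each other list, the genes past the threshold, Il10, Ctla4 and Ikzf2, and the 5 genes most and 3 least like Hif1a. Other genes named were chosen after their values were seen. Same-numbered replicates are not stated to be paired. Alternatives covered normalization, a filter, moderation, array weights, a replicate block, the probe set rule and leaving out arrays. The table gives no slide or scan date, so no batch was tested.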

Additional observations from a re-analysis of the deposited data

Results flagged for a closer look

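Of the 20 groups of 4 arrays checked (10 probe sets in 2 groups), 1 held an array far from the others. The leading probe set of Hif1a read 11.04 in IL10-/- replicate 3, while the other IL10-/- arrays lay at 11.12, so the gap to its nearest neighbour was 0.913 of the range of the group. Chance marks about 1 in 20 such groups.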

How the results depend on the processing

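The 9 genes stayed at 0 calls under all 17 alternatives, and the smallest adjusted p of any of them was 0.570 (Hif1a without IL10+/+ replicate 2). Unadjusted p-values of limma under 0.05 came up for 3 of the 9 genes in some of the 17 alternatives. In the main limma fit, before any alternative, they came up for 0 of the 9 genes, against 4.78% of all genes. Each alternative gave a gene another chance to fall under 0.05. The share of all genes that did so in the alternatives is not given here, so the count of 3 does not set the 9 genes apart. For Hif1a p was 0.0117 without IL10+/+ replicate 2, 0.0343 with array weights and 0.0437 with trend and robust moderation. For Pdk2 it was 0.0178 without IL10+/+ replicate 4 and 0.0286 without both arrays that stood apart, and for Pfkm 0.0470 without IL10+/+ replicate 1. Where a single array was left out here, it was the IL10+/+ array that ran most against the difference. A smaller p then follows from the array removed and gives no support for a difference. The median difference of the 9 genes, -0.0047, ranged from -0.09 to 0.02 with 1 array left out. Of 152 differences recomputed for the leading probe sets, 141 kept their sign. Hk1 turned to -0.0044 with each array centred on its median and to -0.0397 without both arrays that stood apart. Eno3 turned to 0.0233 with quantile normalization, 0.0390 with array weights and 0.0881 without both arrays that stood apart. With single arrays left out, Hk1 ranged from -0.0945 to 0.106, Eno3 from -0.0816 to 0.108 and Pfkl from -0.278 to 0.0249. The cause was not tested.

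Among all 6986 genes, 2 were called. This became 3 with trend and robust moderation, 1 with each array centred on its median, with array weights and without both arrays that stood apart, and between 1 and 4 with 1 array left out (4 without IL10-/- replicate 3). The count with the replicate block was 1. Same-numbered arrays did not deviate together (correlations of deviations from -0.32 to 0.05, with 0 of 4 arrays closest to their own number). The highest correlation (0.46) joined IL10-/- replicate 2 and IL10+/+ replicate 4, which stood apart. Since those arrays weigh on such correlations, the check cannot decide whether the numbers pair the arrays. The filter on genes below the median level removed Pfkm. The planned correlations of Hif1a with the other genes were computed but are not reported, because its values fell into levels of 5 and 3 arrays, too few for a correlation within either. Probe sets near background, such as that of Pfkm, limit what the arrays can show.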
